A study of Mus musculus with 2 samples.

Results

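The genes described here encode the proteins that present peptides on the major histocompatibility complex (MHC): the class I and class II chains of the mouse H2 complex, the peptide transporter and loading factors, the immunoproteasome and its PA28 activator, and the transactivators Ciita and Nlrc5. They were chosen by name, as all probes whose gene name begins with H2- plus 12 named genes. This gave 53 genes of 34740 gene names on the array, read by 71 of 55680 probes. The data are 1 array of skeletal muscle from a C26 mouse model and 1 array of Control skeletal muscle. C26 mice were given 1000000 colon 26 carcinoma cells, a mouse colon tumour line used to produce cancer cachexia, in 100 µL of PBS under the skin of the flank, and Control mice were given 100 µL of PBS. Both groups were male CD2F1/Slc mice aged 11 weeks, total muscle RNA was labelled with Cy3, and the series concerns the response of cachectic muscle to mechanical loading. The sources used here do not name the muscle, the interval from implantation to sampling, or any pooling of mice.

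Class I molecules, a heavy chain paired with beta-2 microglobulin, are carried by nearly all nucleated cells and hold peptides cut by the proteasome in the cytosol. Tap1 and Tap2 carry these peptides into the endoplasmic reticulum, where tapasin (Tapbp) helps to load them. Interferon gamma induces most of these genes, among them Psmb8, Psmb9 and Psmb10, which replace the constitutive catalytic subunits and turn the proteasome into the immunoproteasome. Class II molecules, an alpha chain paired with a beta chain, are made mainly by macrophages, dendritic cells and B cells. The invariant chain Cd74 guides them to endosomes, where H2-DM exchanges a fragment of Cd74 for antigen peptides. Ciita switches on class II genes and Nlrc5 class I genes, both through a complex of Rfx, Creb and Nf-Y factors bound to the X and Y boxes of these promoters.

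Signals below are processed intensities put on a common scale by each array's 75th percentile, and each log2 ratio is C26 minus Control. The error beside a ratio is the scanner software's error of the spots. With 1 array per group there was no spread between animals, no test was possible, and every value describes these arrays. On the C26 array 53.8% of the non-control spots counted as well above background, and on the Control array 50.4%. A gene was called measured where both arrays read its brightest probe as well above background, which held for 37 of the 53 genes. For 15 more the brightest probe was not well above background on either array, and for H2-M9 it was so on the Control array alone. Of the 10 skeletal muscle fibre markers, 10 were measured, with a median log2 ratio of 0.03 (-0.13 to 0.03 over the settings tried), and their signals summed to 2484060 on the C26 array and 2455860 on the Control array.

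Promoter sequence from RefSeq (GRCm38.p6), which is that of the reference strain and not of CD2F1, was on hand for 38 of the 53 genes. The 200 bases before the start site are shown for 3 class II genes, because they carry the boxes through which Ciita acts and because these genes lay at least 1.5-fold lower on the C26 array. Capitals mark the X box core, an 11-letter pattern with some free letters, and the Y box core, CTGATTGG, each searched on both strands.
H2-Aa, chr17:34287824-34288023, minus strand: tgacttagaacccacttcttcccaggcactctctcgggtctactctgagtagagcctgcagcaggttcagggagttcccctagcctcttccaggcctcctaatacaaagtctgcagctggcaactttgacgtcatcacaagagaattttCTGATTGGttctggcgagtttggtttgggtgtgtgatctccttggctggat
H2-Eb1, chr17:34305667-34305866, plus strand: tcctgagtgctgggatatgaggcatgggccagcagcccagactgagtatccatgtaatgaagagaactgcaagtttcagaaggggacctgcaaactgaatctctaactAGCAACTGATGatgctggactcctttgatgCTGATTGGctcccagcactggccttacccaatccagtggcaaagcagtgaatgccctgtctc
H2-DMb1, chr17:34152991-34153190, plus strand: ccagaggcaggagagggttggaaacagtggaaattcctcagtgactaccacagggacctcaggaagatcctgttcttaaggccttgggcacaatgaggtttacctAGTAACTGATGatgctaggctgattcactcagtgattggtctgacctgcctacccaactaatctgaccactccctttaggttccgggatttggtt
H2-Eb1, a class II beta chain, had both cores, starting 92 and 62 bases before the start site. H2-Aa, its counterpart alpha chain of the other class II pair, had a Y core 51 bases before the start, and H2-DMb1, a subunit of the loading factor H2-DM, had an X core 95 bases before it. Within 250 bases before the start, the X core lay in 4 of 8 class II genes, against 0.816% of 32851 promoters, and the Y core in 4 of 8, against 3.83%. Both lay in 3 of 8, H2-Eb1, H2-Eb2 and H2-Oa, against 0.0304% of all promoters. These letters are a description, and their absence says nothing about the factors.

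The promoters of the classical class I genes H2-K1 and H2-D1 and of beta-2 microglobulin are shown beside them, because their ratios lay closer to 0. Capitals mark a kappa B site, the Y core and, in B2m, the core of an interferon response element, all searched on both strands.
H2-K1, chr17:34000334-34000533, minus strand: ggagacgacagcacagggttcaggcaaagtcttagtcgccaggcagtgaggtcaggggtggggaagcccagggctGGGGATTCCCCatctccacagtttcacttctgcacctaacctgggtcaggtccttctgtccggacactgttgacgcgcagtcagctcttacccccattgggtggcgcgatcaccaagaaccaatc
H2-D1, chr17:35262894-35263093, plus strand: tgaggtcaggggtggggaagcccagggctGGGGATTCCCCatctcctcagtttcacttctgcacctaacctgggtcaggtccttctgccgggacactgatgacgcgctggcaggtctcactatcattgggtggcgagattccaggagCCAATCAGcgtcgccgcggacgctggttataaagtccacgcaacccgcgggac
B2m, chr2:122147487-122147686, plus strand: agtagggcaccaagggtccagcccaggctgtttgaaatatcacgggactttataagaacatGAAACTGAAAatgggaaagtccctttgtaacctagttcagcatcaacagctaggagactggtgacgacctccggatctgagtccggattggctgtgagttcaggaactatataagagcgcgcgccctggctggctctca
The kappa B site lay in 3 of 20 class I heavy chain promoters, H2-K1, H2-D1 and H2-Q6, against 0.0304% of all promoters, and in 0 of 8 class II promoters. The Y core lay in 11 of 20 and the X core in 3 of 20. All 11 class I Y cores lay on the strand opposite to the gene, reading CCAATCAG, whereas the class II Y cores lay on its own strand. The X cores were in H2-M10.1, H2-M10.2 and H2-M10.6, which were not well above background on either array. The measured heavy chains with a Y core were H2-D1, H2-M11, H2-Q6, H2-Q7 and H2-T23. The interferon response core, which 2.98% of all promoters hold, lay in B2m and H2-T23.

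The MHC genes as a whole lay slightly lower on the C26 array, and the class II genes lay lower than the class I genes. The median log2 ratio of the 37 measured genes was -0.14, against 0.04 over all 19668 measured genes, and 32 of 37 lay below 0, against 43.5% of all measured genes. At a size of at least 1.5-fold, 9 of 37 were lower on the C26 array, against 4.83% of all measured genes, and 0 were higher, against 4.37%. At 2-fold, 2 were lower, against 1.15%, and 0 were higher, against 1.25%. Of the 9 genes, 6 were class II chains or loading factors, 2 were class I heavy chains and 1 was Nlrc5. For 19 of the 37 the ratio was smaller than its scanner error.

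**Figure D1:**
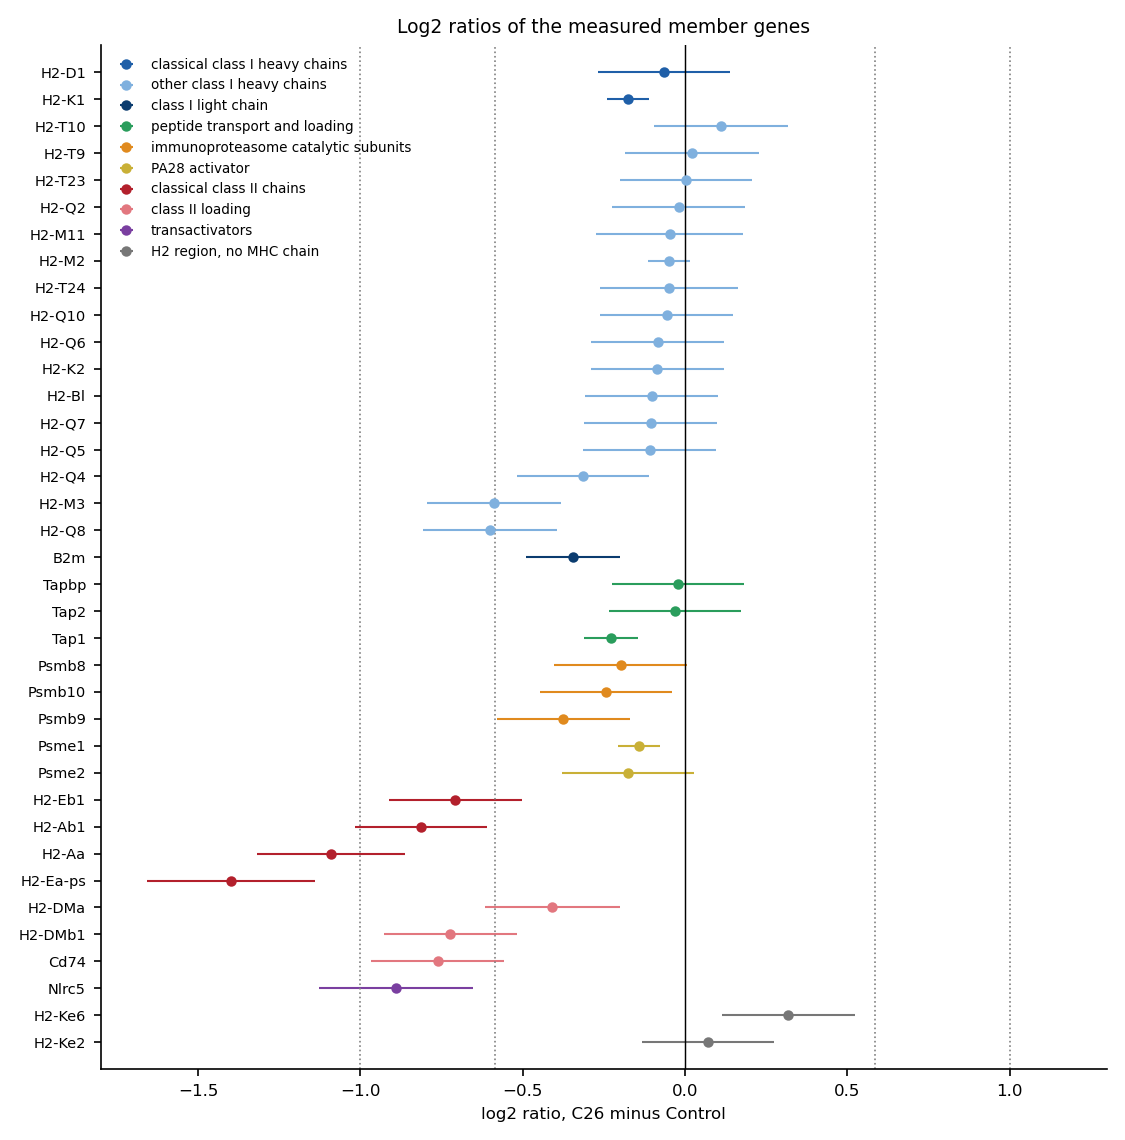
Log2 ratio (C26 minus Control, x axis) of each of the 37 measured member genes, grouped and coloured by role. Bars are the scanner software's error of 1 array per group, and dotted lines mark 1.5-fold and 2-fold. The 7 class II genes lie between -1.40 and -0.41, while 16 of 18 class I heavy chains lie within 0.32 of 0.

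Among the class II chains, H2-Ab1, the beta chain of the I-A molecule, had a signal of 2469 on the C26 array and 4340 on the Control array. The C26 signal was 1.76-fold lower, a log2 ratio of -0.81 (error 0.20). A second probe, which matches 50 of 51 overlapping bases of the same transcript stretch, gave 2394 on the C26 array and 4147 on the Control array, a log2 ratio of -0.79. H2-Eb1, the beta chain of I-E, had 3199 on the C26 array and 5221 on the Control array, 1.63-fold lower (log2 ratio -0.71, error 0.20). These beta chains were bright on both arrays, far above the lowest signals well above background, which were 14.5 on the C26 array and 18.1 on the Control array.

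The alpha chains had the lowest ratios of the 37 measured genes but were dim. H2-Ea-ps, the I-E alpha chain, had 37.9 on the C26 array and 99.9 on the Control array, a log2 ratio of -1.40 (error 0.26). It was 2.64-fold lower and the 77th lowest ratio of the 19668 measured genes. The name ends in -ps because the gene is not expressed in the reference strain, whereas the parent strains of CD2F1 carry an expressed form. H2-Aa, the I-A alpha chain, had 56.5 on the C26 array and 120 on the Control array, 2.13-fold lower (log2 ratio -1.09, error 0.23). Under the normexp correction, whose added offset pulls the ratios of dim genes towards 0, H2-Ea-ps was at -0.63 and H2-Aa at -0.60, so no member was then 2-fold lower. H2-Eb2, another class II beta chain gene, was not well above background on either array.

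The probes of the alpha chains and of H2-DMa are shown, as the members whose values rest on the dimmest class II spots. The files place them on mm9, where they start at base 227, 166 and 329 of their transcripts, and the H2-DMa probe spans an intron.
H2-Aa probe, chr17:34421285-34421344, minus strand: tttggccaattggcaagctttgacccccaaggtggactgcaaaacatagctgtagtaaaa
H2-Ea-ps probe, chr17:34481469-34481528, minus strand: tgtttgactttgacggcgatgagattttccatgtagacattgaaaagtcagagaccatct
H2-DMa probe, chr17:34274300-34274863, plus strand: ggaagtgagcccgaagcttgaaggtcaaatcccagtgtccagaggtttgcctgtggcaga

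The loading factors of class II also lay lower on the C26 array. Cd74, the invariant chain, had 1874 on the C26 array and 3178 on the Control array, 1.70-fold lower (log2 ratio -0.76, error 0.20). H2-DMb1 had 302 on the C26 array and 498 on the Control array, 1.65-fold lower (log2 ratio -0.72, error 0.21). H2-DMa, its partner chain, had 139 on the C26 array and 184 on the Control array, a log2 ratio of -0.41 (error 0.21). H2-DMa was thus the 1 measured class II gene under 1.5-fold. H2-DMb2, an alternative beta chain of H2-DM, and H2-Oa, which forms the H2-DM inhibitor H2-O with H2-Ob, were not well above background on either array. Of 3 probes for H2-Ob, 1 was well above background on the Control array alone, at 5.85 on the C26 array and 29.1 on the Control array, a signal at least 2.01-fold lower. The brightest H2-Ob probe was not well above background on either array. Together, 7 of 11 class II genes were measured, 7 of 7 lay below 0, and their median was -0.76.

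**Figure D2:**
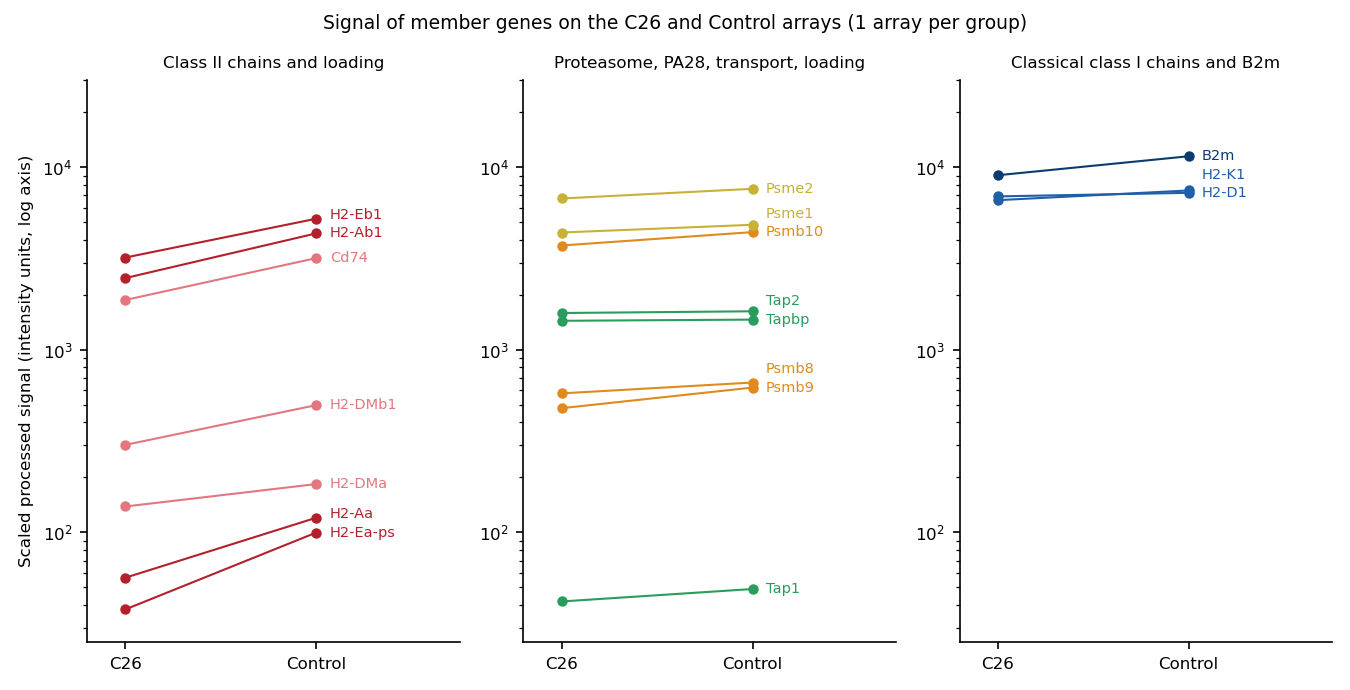
Scaled signal (log axis) of measured members on the C26 array (left) and the Control array (right), 1 line per gene, for class II, for the proteasome, transport and loading genes, and for classical class I with B2m. The class II lines are the steepest, with H2-Ea-ps at 37.9 on C26 against 99.9 on Control and H2-Ab1 at 2469 on C26 against 4340 on Control, and H2-D1 is nearly level at 6917 on C26 against 7233 on Control.

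Of the transactivators, Nlrc5 had 51.1 on the C26 array and 94.8 on the Control array, 1.85-fold lower (log2 ratio -0.89, error 0.24). It was dim, and with normexp its ratio was -0.41. A second Nlrc5 probe and the Ciita probe were not well above background on either array, so no value can be given for the class II transactivator. Among 19 regulators of MHC transcription and interferon gamma signalling, 16 were measured, 8 below 0 and 8 above. Their median of -0.04 ranged from -0.10 to 0.01 over the settings that filter dim probes. Socs1, an inhibitor of interferon signalling, was 1.501-fold lower at 106 on the C26 array and 159 on the Control array. Nfya, a subunit of the Y box factor Nf-Y, was at 75.03 on the C26 array and 55.2 on the Control array, a log2 ratio of 0.44, and Ifngr1, a receptor chain for interferon gamma, was at 2906 on the C26 array and 2283 on the Control array, a log2 ratio of 0.35. Irf1, which interferon gamma induces, had a log2 ratio of -0.17. Ifng itself and Rfx5, the X box factor, were not well above background on either array.

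The class I heavy chains differed little between the arrays. Of 29 such genes 18 were measured, with a median log2 ratio of -0.07. The ratio lay below 0 for 15 of them, within 0.32 of 0 for 16, and under its scanner error for 14. H2-K1, a classical chain, was read by 10 spots per array and had 6595 on the C26 array and 7454 on the Control array, a log2 ratio of -0.18 (error 0.06). Its spots had a standard deviation of 0.04 on the C26 array and 0.06 on the Control array on the log2 scale, and a second probe gave -0.11. H2-D1, the other classical chain measured, had 6917 on the C26 array and 7233 on the Control array, a log2 ratio of -0.06 (error 0.20). B2m, the light chain common to class I molecules, had 9030 on the C26 array and 11473 on the Control array, a log2 ratio of -0.35 (error 0.14). All 3 were bright on both arrays.

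Among the other class I heavy chains measured on both arrays, H2-Q8 and H2-M3 stood lowest. H2-Q8, of the Qa cluster, had 226 on the C26 array and 342 on the Control array, 1.52-fold lower (log2 ratio -0.60, error 0.21). H2-M3, which presents peptides with a formylated start, as bacteria and mitochondria make them, had 157 on the C26 array and 236 on the Control array, 1.504-fold lower (log2 ratio -0.59, error 0.21). With normexp these ratios were -0.48 and -0.47, no longer past 1.5-fold, while the 6 class II genes past it stayed there. H2-Q4, also of the Qa cluster, had 13065 on the C26 array and 16250 on the Control array (log2 ratio -0.31, error 0.20). H2-T23, which encodes Qa-1, a ligand of inhibitory receptors on natural killer cells, had 9558 on the C26 array and 9535 on the Control array. H2-T10 was highest of the measured heavy chains, at a log2 ratio of 0.11 with an error of 0.21. H2-M2, read by 10 spots per array, was at -0.05 (error 0.06), but its other probe was not well above background on either array. The H2-M9 probe was at 3.13 on the C26 array, not well above background, and 36.2 on the Control array, at least 2.50-fold lower. A second H2-M9 probe was not well above background on either array.

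Not well above background on either array were H2-M1, H2-M5, H2-M10.1, H2-M10.2, H2-M10.3, H2-M10.4, H2-M10.6, H2-Q1, H2-T3 and H2-T18, all class I-like genes. The remaining measured heavy chains, H2-Q2, H2-Q5, H2-Q6, H2-Q7, H2-Q10, H2-K2, H2-Bl, H2-T9, H2-T24 and H2-M11, lay between -0.11 and 0.02. Class I genes are close copies of each other, so a probe can read more than 1 of them. An H2-Q10 probe and an H2-Q2 probe match at 45 of 50 aligned bases (capitals mark the matching bases, the positions are mm9, and the probes start at bases 645 and 608 of their transcripts).
H2-Q10 probe, chr17:35610036-35610095, plus strand: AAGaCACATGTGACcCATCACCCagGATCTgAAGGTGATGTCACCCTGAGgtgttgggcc
H2-Q2 probe, chr17:35460007-35460066, plus strand: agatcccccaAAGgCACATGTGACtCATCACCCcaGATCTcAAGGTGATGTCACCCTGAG
The H2-Q10 probe had 401 on the C26 array and 417 on the Control array, and the H2-Q2 probe 1215 on the C26 array and 1292 on the Control array. Their log2 ratios, -0.06 and -0.09, differed by less than the scanner error. Probes of H2-Q7 and H2-K2 likewise match at 49 of 57 aligned bases, so single names in this family are uncertain. The files place the H2-Q2 probe shown here before the H2-Q1 probe, which starts at 35461859. The other H2-Q2 probe starts at 35482113, beyond both, so the gene that the shown probe reads is uncertain. Another H2-Q10 probe passed the background limit only for C26, at 16.4 there and 8.23 on the Control array. Its C26 signal lay under 18.1, the dimmest Control signal well above background, so no lower bound on the fold was given.

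The transport and loading genes of class I were nearly level. Tap2 had 1590 on the C26 array and 1625 on the Control array (log2 ratio -0.03, error 0.20). Tapbp had 1441 on the C26 array and 1463 on the Control array (log2 ratio -0.02, error 0.20). Tap1, dim but read by 10 spots per array, had 41.9 on the C26 array and 49.0 on the Control array, a log2 ratio of -0.23 (error 0.08), or -0.08 with normexp. Its spots varied with a standard deviation of 0.20 on the C26 array and 0.18 on the Control array on the log2 scale.

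The 5 members of the immunoproteasome and PA28 all lay below 0, by small amounts. Psmb9 had 479 on the C26 array and 621 on the Control array (log2 ratio -0.38, error 0.20). Psmb10 had 3724 on the C26 array and 4409 on the Control array (log2 ratio -0.24, error 0.20), and Psmb8 had 577 on the C26 array and 662 on the Control array (log2 ratio -0.20, error 0.20). PA28, a cap that opens the proteasome, is built of Psme1 and Psme2. Psme1, with 10 spots per array, had 4386 on the C26 array and 4835 on the Control array (log2 ratio -0.14, error 0.06). Psme2 had 6735 on the C26 array and 7610 on the Control array (log2 ratio -0.18, error 0.20), and its other probes gave -0.06 and -0.31. Psmb9 and Tap1 stand head to head, with start sites 226 bp apart, and both ratios were small.

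The constitutive counterparts lay on the other side of 0. Psmb5, which Psmb8 replaces, had 48453 on the C26 array and 43017 on the Control array, a log2 ratio of 0.17. Psmb6, which Psmb9 replaces, was at 0.22, and Psmb7, which Psmb10 replaces, at 0.26. Each immune subunit's log2 ratio was therefore below that of its counterpart, by -0.37 for Psmb8, -0.59 for Psmb9 and -0.50 for Psmb10, each with a scanner error of 0.29. The 7 constitutive genes also included the other activators Psme3 and Psme4, the inhibitor Psmf1 and the assembly factor Pomp. All 7 lay above 0, at 0.05 to 0.29, as did 11103 of all 19668 measured genes. The ratios of Psmb5, Psme3, Psmf1 and Pomp were smaller than their scanner errors of 0.20 to 0.21. Past 1.5-fold were 0 of the 7, against 4.37% of all measured genes. With quantile normalization, loess, the deposited value table or a percentile taken over probes well above background, 6 of 7 lay above 0. The pair differences ranged from -0.38 to -0.26 for Psmb8, -0.59 to -0.48 for Psmb9 and -0.53 to -0.48 for Psmb10 over the settings tried.

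**Figure D3:**
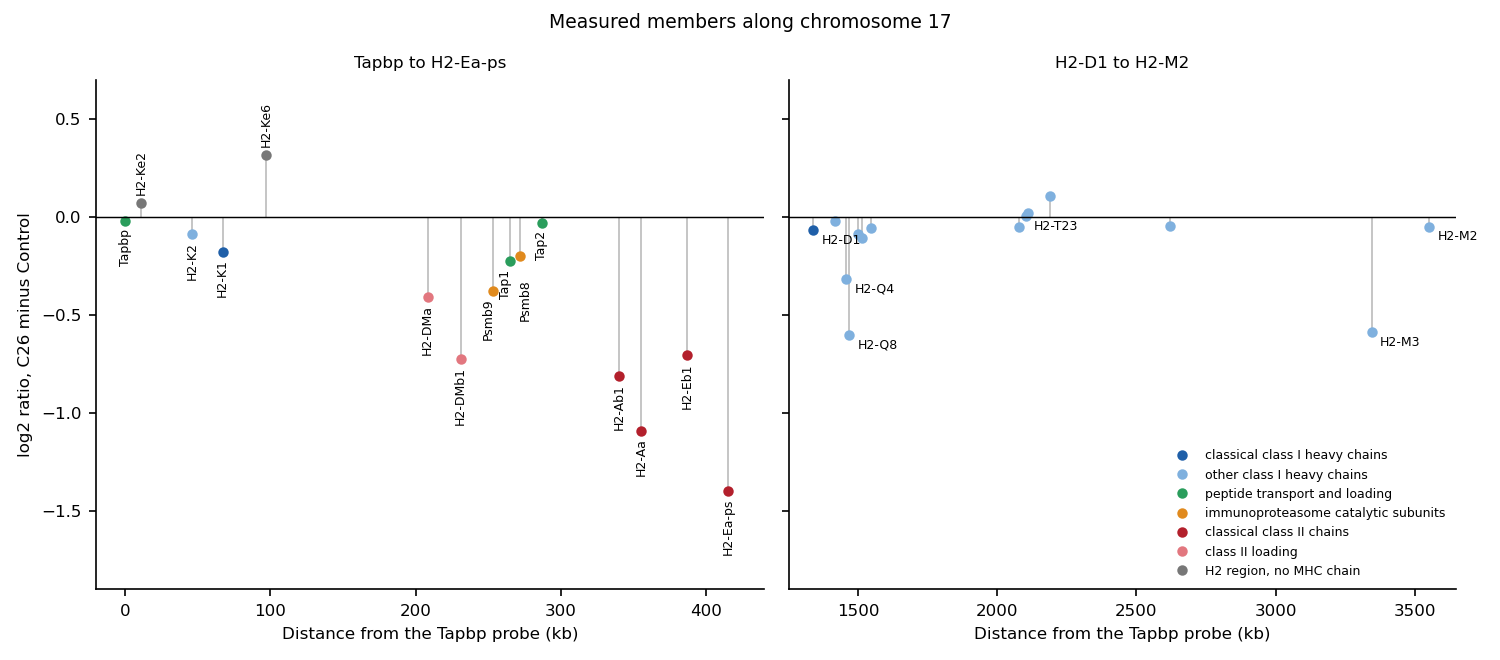
Log2 ratio (C26 minus Control) of measured members on chromosome 17 by distance in kb from the Tapbp probe, on 2 distance scales, coloured by role. Class II chains and loading factors reach from -1.40 to -0.41, while Tap2 at -0.03 and Psmb8 at -0.20 lie among them.

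Of the 53 genes, 43 have probes placed on chromosome 17, where the H2 complex lies. Along it, Psmb9, Tap1, Psmb8 and Tap2 form 1 block with class II genes on both sides. H2-DMb1 (-0.72) lay 231 kb from the Tapbp probe, followed by Psmb9 at 253 kb, Tap1 at 265 kb, Psmb8 at 272 kb and Tap2 at 287 kb, and then H2-Ab1 (-0.81) at 340 kb. Genes with ratios near 0, such as Tap2, thus stood between class II genes at least 1.5-fold lower. H2-Ke6 and H2-Ke2 lie in the same stretch but encode no MHC chain, being an enzyme of steroid and fatty acid metabolism and a subunit of the chaperone prefoldin. H2-Ke6 had 8610 on the C26 array and 6904 on the Control array, the highest ratio of the 37 measured genes at 0.32 (error 0.20), and H2-Ke2 had 3572 on the C26 array and 3400 on the Control array (log2 ratio 0.07). Without this pair the median over members was -0.18.

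Of 22 other listed antigen processing names, 21 had a probe, and all 21 were measured. Their median log2 ratio was -0.12, with 12 below 0 and 9 above, and 2 were at least 1.5-fold lower, against 4.83% of all measured genes. Ctss (cathepsin S), the protease that trims the invariant chain in antigen-presenting cells, had 662 on the C26 array and 1621 on the Control array, 2.45-fold lower (log2 ratio -1.29, error 0.20). Cd1d1, which presents lipids to natural killer T cells, had 102 on the C26 array and 178 on the Control array (log2 ratio -0.81, error 0.21). The endosomal proteases Ctsb (-0.18), Ctsl (0.02) and Lgmn (-0.12) and the endosomal thiol reductase Ifi30 (-0.20) lay closer to 0. Thop1, a peptidase that degrades peptides in the cytosol, was highest at 702 on the C26 array and 524 on the Control array (log2 ratio 0.42).

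Markers of the cells that carry class II were set beside these values. Of 14 macrophage markers 12 were measured, 11 of them below 0, with a median log2 ratio of -0.20 and 2 at least 2-fold lower, Cd68 (-1.35) and Ms4a7 (-1.29), against 1.15% of all measured genes. With Lyz2 (-0.98) and Adgre1 (-0.73), 4 of 12 were at least 1.5-fold lower, against 4.83%. Sums of signals here and below take in every listed gene with a probe, measured or not. The macrophage sums were 12221 on the C26 array and 15265 on the Control array. Itgam and Csf1r made up 5713 and 3218 of them on the C26 array, and 6684 and 4062 on the Control array. C1qa (-0.12), C1qb (-0.14), C1qc (-0.05) and Cd14 (-0.09), also made by macrophages, lay near 0. Of 9 dendritic cell markers 6 were measured, 4 below 0 and 2 above. Their median of -0.35 ranged from -0.57, with the mean over a gene's measured probes, to -0.22 over the settings that filter dim probes. The dendritic cell sums were 47089 on the C26 array and 53672 on the Control array. Siglech, read by the brightest of 3 probes, made up 46840 on the C26 array and 52987 on the Control array. Its log2 ratio on that probe was -0.18, and the sums rest almost wholly on this 1 reading. The median of -0.57 with averaged probes shows that the values of this list depend on which probes are read. Itgax, the integrin chain CD11c, had 21.2 on the C26 array and 406 on the Control array (log2 ratio -4.26, error 0.31). It was dim on the C26 array, where the lowest signal well above background was 14.5. With normexp the lowest ratio of this list was -2.42, and the stricter filter on dim probes left Itgax out. Flt3 (0.20) and Zbtb46 (0.44) lay above 0, and Xcr1 and Clec9a were not well above background on either array. Of 8 B cell markers 4 were measured, 3 below 0 and Cd79a (0.18) above. Their median of -0.43 ranged from -0.56 to -0.16 over the settings that filter dim probes. Their signals summed to 417 on the C26 array and 589 on the Control array, and Ms4a1, Pax5 and Igkc were not well above background on either array. In whole muscle, fewer cells of a type and less RNA per cell cannot be told apart, and the part of these cells in the class II values was not tested.

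The other marker lists did not share 1 direction. T and NK cell markers had a median of 0.07 (-0.00096 to 0.15 over the settings that filter dim probes) over 5 of 12 measured. Of these 5, 2 lay below 0 and 3 above, and 1 was at least 2-fold lower, against 1.15% of all measured genes. The T and NK cell sums were 6471 on the C26 array and 5886 on the Control array. Cd4 and Nkg7 made up 3574 and 2007 of them on the C26 array, and 3063 and 1907 on the Control array. Neutrophil markers had a median of 0.36 over 5 of 7. S100a8 had 286 on the C26 array and 51.8 on the Control array (log2 ratio 2.46), S100a9 had 1200.4 on the C26 array and 236 on the Control array (log2 ratio 2.35), and Retnlg passed the background limit on the C26 array alone. The neutrophil sums were 28680 on the C26 array and 32796 on the Control array, of which Csf3r made up 26904 on the C26 array and 32298 on the Control array. Of 8 endothelial markers 8 lay above 0, or at fewest 5 over the settings tried, with a median of 0.26 and sums of 14805 on the C26 array and 11540 on the Control array. Of 8 fibroblast markers 7 lay below 0, with a median of -0.75, close in size to the class II median of -0.76, and sums of 99184 on the C26 array and 150702 on the Control array. The share of these lists in the MHC values was not tested.

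**Figure D4:**
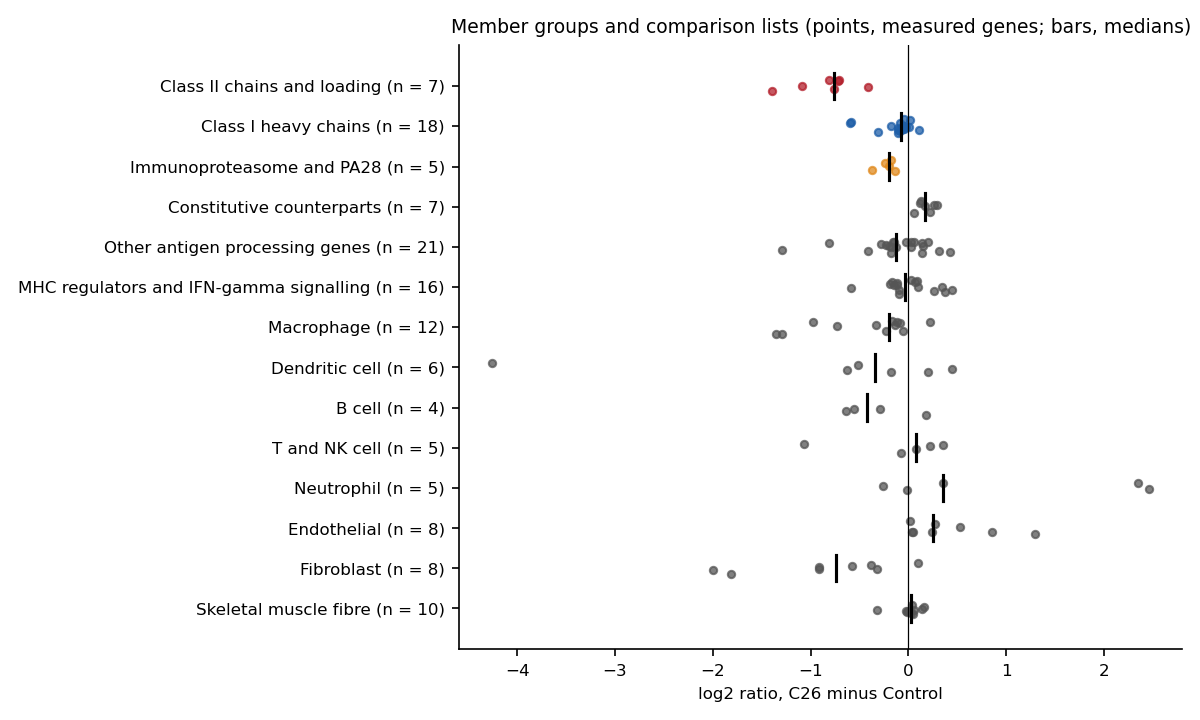
Log2 ratio (C26 minus Control, x axis) of the measured genes of 3 member groups and 11 comparison lists, 1 point per gene, with the median as a bar. Class II (median -0.76) and fibroblast markers (-0.75) lie lowest, and class I heavy chains (-0.07) and muscle fibre markers (0.03) near 0. The point at -4.26 is Itgax, which was dim on the C26 array.

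The order of the member groups was the same with each way of scaling. The class II median ranged from -0.85 to -0.63, that of the immunoproteasome and PA28 from -0.28 to -0.20, and that of the class I heavy chains from -0.17 to -0.07. Every measured class II gene lay below 0 under the settings plotted. The 6 genes with several measured probes had all measured probes on 1 side of 0, with a largest spread of 0.25, for Psme2. The Psme2 probe at -0.31 was dim, at 49.5 on the C26 array and 61.2 on the Control array. The probes of H2-Ab1 overlap, as do those of H2-K2, so these pairs are not separate readings. The second H2-T24 probe was at -0.00024, and the gene read by 1 of the H2-Q2 probes is uncertain. Left out of this count are probes that failed the background limit on either array. Of these, second probes of H2-Q10 (0.99, error 0.74), H2-M2 (0.47, error 1.67) and Nlrc5 (0.18, error 0.59) lay above 0. The measured probes of these genes lay below 0. The second Psmb9 probe (-0.37, error 2.05) lay below 0, as its measured probe did.

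**Figure D5:**
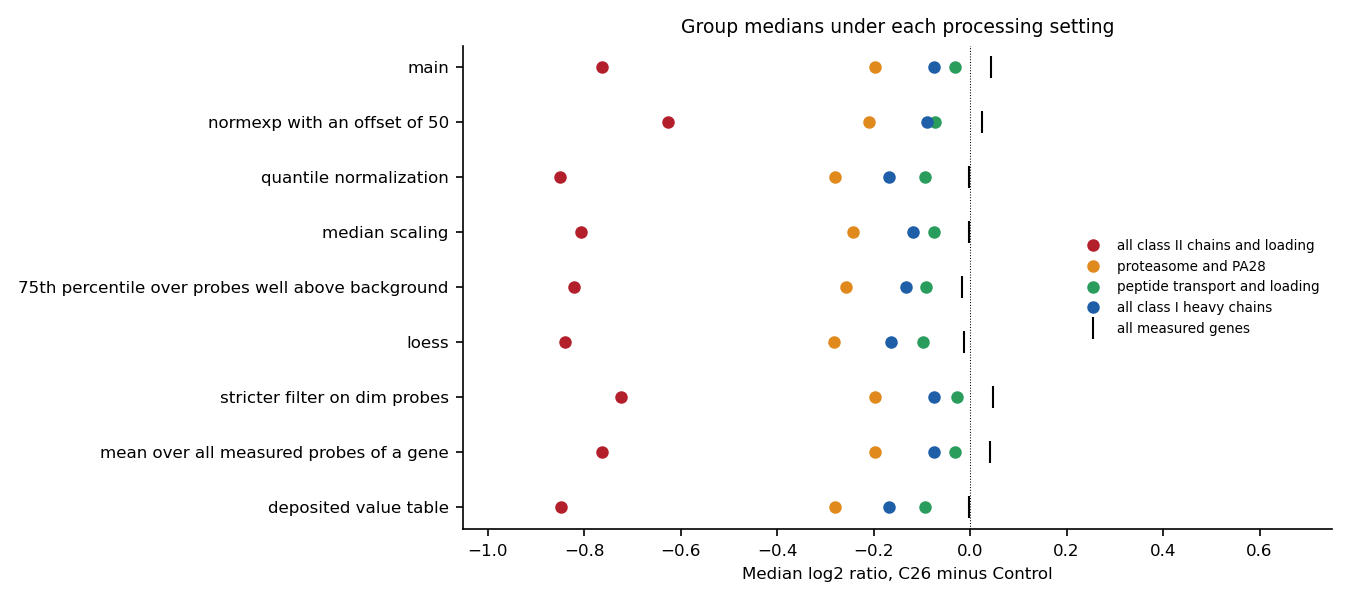
Median log2 ratio (C26 minus Control, x axis) of 4 member groups and of all measured genes under the main setting (top row) and 8 other settings. The class II median stays between -0.85 and -0.63, and below those of the other groups in every row.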

How the data were processed

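Skeletal muscle RNA was measured on 2 one-colour arrays, 1 for C26 and 1 for Control, on 1 slide with the same scan time. Per the file headers, Agilent Feature Extraction 10.7.1.1 made the deposited spot intensities (the submitters' processing notes list 9.5.1.1), with background subtracted, signals detrended, and surrogate values for spots below measurement (25.6% of C26 and 31.9% of Control non-control spots). A deposited table of 1 intensity per probe served as an alternative. In it 99.9% of values lay within 0.01 on the log2 scale of processed signals that were quantile-normalized before taking logs. Against the quantile normalization of log2 values used here as an alternative, 72.7% of C26 values and 72.8% of Control values lay that close. Both alternatives gave a class II median of -0.85, so they are not separate checks. Both columns of the deposited table had a median of 19.75, uncentred. The sources used here do not say how the authors made this table.

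Outlier spots were left out (91 on C26, 110 on Control), log2 values of a probe's spots were averaged, and each array's 75th percentile over non-control probes was subtracted. No spot was saturated. A gene took its brightest probe. The reference table (GRCm38.p6) named 31381 of 55680 probes by accession or symbol; members kept their file names. For a probe well above background on 1 array, an "at least" fold used the lowest signal well above background on the other array, or the dim probe's own where higher. Median scanner error of a log2 ratio was 0.20, and the number of arrays limits the precision. Gene counts use fixed sizes of 2-fold and 1.5-fold in place of a test.

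Members, gene lists and named genes were chosen with earlier results of these data known. Each member may be named, and of the lists each gene; 1 list gene is not reported here. The alternatives were normexp (limma 3.58.1, R 4.3.3, offset 50), quantile normalization, median scaling, the percentile over probes well above background, loess (span 0.3), dim probes unfiltered or filtered more strictly (log2 signal at least 2 above the lowest well above background), the mean over a gene's probes, the deposited table, a 3-fold size, and 2 further sets of members. Python 3.11.15, numpy 2.4.6, pandas 2.3.3, statsmodels 0.14.6 and matplotlib 3.10.9 were used, and scripts were tested on simulated data.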

Additional observations from a re-analysis of the deposited data

How the results depend on the processing

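No paired analysis was possible because each group had 1 array and no test was run. The count of members at least 2-fold lower was 2. It was 0 with normexp, 0 with the stricter filter, which removes both dim alpha chains, 0 at a 3-fold size, and 6 with no filter on dim probes, where 3.79% of all genes were at least 2-fold lower. With no filter, 1 member lay 2-fold higher or more, and 2 members 1.5-fold higher or more, where both counts were 0. The count at least 1.5-fold lower was 9, and was 6 with normexp (2.07% of all measured genes), 6 with the stricter filter (3.65%) and 13 with no filter (8.22%). The median of the classical class II chains was -0.95, and -0.66 with normexp. That of the transactivators, which is Nlrc5 alone, was -0.89, and -0.41 with normexp and -0.14 with no filter, which adds Ciita. H2-Ke2, H2-Q2, H2-T23 and H2-T9, all within their scanner error of 0, lay on the other side of 0 under some settings. H2-K1 was at -0.28 with quantile normalization, loess and the deposited table, and Psme1 at -0.23 to -0.24. The median over members ranged from -0.24 to -0.11. A set without members that share 50 aligned probe bases with another member, chosen after seeing the data like the set without H2-Ke6 and H2-Ke2, left the median at -0.14, since no pair of different genes reached that number.

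Dim signal limits H2-Aa, H2-Ea-ps, Nlrc5 and Tap1, which the stricter filter left out, with 33 members remaining. For probes not well above background on either array no difference was detectable.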
